A study of Mus musculus with 12 samples.

Results

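The nuclear genes of respiratory complexes III and IV, of cytochrome c and of ATP synthase were followed in brown adipocytes with and without a soluble form of Semaphorin 4B. The members were chosen by gene symbol alone, as symbols that begin with Uqcr, with Atp5, or with Cox followed by a digit from 4 to 8 and a letter, together with Cyc1 and Cycs. Of the 48321 rows of the table, 45 were members, namely 9 of complex III including Cyc1, 1 for cytochrome c (Cycs), 18 of complex IV and 17 of ATP synthase. A further 6 rows with pseudogene names (-ps) were left out. The rule goes by name, so 3 members are not subunits: Cox7a2l, a factor that joins complexes III and IV into supercomplexes, and Atp5s and Atp5sl, now known as Dmac2l and Dmac2.

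RNAseq was performed on brown adipocytes differentiated from preadipocytes of the interscapular brown fat of a WT newborn C57BL/6J mouse, which had been immortalized with SV40 large T antigen. The immortalized cells carried either the empty lentiviral vector pLEX (vector) or pLEX with Flag-tagged truncated Sema4B (tSema4B), a secreted mimetic of the form that ADAM17 releases. After puromycin selection and 8 days of differentiation, each line was left unstimulated or exposed to norepinephrine (NE), the adrenergic agonist that activates brown fat. This gave 4 groups of 3 libraries, vector and tSema4B cells each without and with NE, and all of them shared the immortalization, the selection and the differentiation. There was 1 stable line per construct and the labels call the 3 libraries technical replicates, so the construct and the line cannot be told apart and the p-values measure only the spread between these libraries.

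Complex III passes electrons from ubiquinol to cytochrome c, complex IV (cytochrome c oxidase) passes them from cytochrome c to oxygen, and both pump protons across the inner mitochondrial membrane. ATP synthase lets the protons back in and makes ATP, a step that Ucp1 short-circuits in active brown fat to release heat. The catalytic cores of complexes III and IV and the proton channel of ATP synthase include a few subunits encoded in mitochondrial DNA, and nuclear genes, among them most of those described here, encode the rest. Several complex IV subunits exist as a widely expressed form and a form of heart, skeletal muscle or brown fat, Cox7a1 being the best known of the latter.

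Library depth ran from 2000780 to 5409583 reads on genes, and vector libraries had more reads than tSema4B libraries of the same condition. Genes of the mitochondrial genome took 13.4% to 16.7% of the reads in the 6 vector libraries and 6.91% to 7.89% in the 6 tSema4B libraries. Fabp4 and Adipoq, which mark adipocytes in general, were at means of 24034 and 2458 normalized counts in vector unstimulated cells. Of the genes particular to brown adipocytes, Ucp1 was at a mean of 12.1 in vector unstimulated and 276 in vector NE cells, and Dio2 was listed at 0 in every library. Of 12 adipocyte and brown adipocyte markers, 11 were tested and 9 were lower in tSema4B cells in either condition, and their summed level was 32985 to 36653 in vector and 5279.5 to 7887 in tSema4B unstimulated libraries. Of 9 preadipocyte and fibroblast markers, 7 were higher in tSema4B cells without stimulation and 8 after NE. Their summed level without stimulation was 9915 to 10356 normalized counts in vector and 17663 to 20140 in tSema4B libraries. Among all genes tested, 7.39% were lower in tSema4B cells without stimulation and 11.2% after NE, and 5.64% and 9.79% were higher. The macrophage, endothelial and skeletal muscle lists each stayed at or below a summed 34.9 normalized counts in every library. The 4 smooth muscle markers were not scarce, at a summed 545 to 1339 normalized counts over the libraries. Of these 3 were tested, and in tSema4B against vector cells none was called without stimulation and 1 was lower after NE. In bulk RNA, fewer brown adipocytes and less RNA of these genes per cell cannot be told apart, and the part of the marker shift in the results that follow was not tested.

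Of the 45 members, 40 reached the level for testing, a normalized count of 10 in 3 or more of the 12 libraries. Normalized counts here are reads divided by the size factor of the library. The 5 that did not were all complex IV isoforms, namely Cox4i2, Cox6b2, Cox7b2, Cox8b and Cox8c. The summed level of the members was lower in tSema4B than in vector cells for each complex and in either condition, with no overlap between libraries. For complex III the sum was 6098 ± 323 normalized counts (SD, n = 3) in vector and 3955 ± 345 in tSema4B unstimulated cells, and 6849 ± 527 against 4356 ± 191 after NE. For complex IV it was 10031 ± 742 against 7066 ± 1194 without stimulation and 13039 ± 1657 against 7039 ± 1115 after NE. For ATP synthase it was 21031 ± 994 against 14535 ± 1062 without stimulation and 23099 ± 1131 against 15697 ± 335 after NE. The tSema4B sums were thus 35.1%, 29.6% and 30.9% lower than the vector sums without stimulation for complexes III, IV and ATP synthase, and 36.4%, 46.0% and 32.0% lower after NE. The difference widened most for complex IV, whose vector sum was 1.30 times as high with NE as without and whose tSema4B sum was 0.996 times as high. For complex III and ATP synthase these ratios lay between 1.08 and 1.12 in both lines. This contrast between the complexes was not seen among members with transcripts under 1 kb, whose summed level in vector cells was 1.31, 1.30 and 1.28 times as high with NE as without for complexes III, IV and ATP synthase. For members of 1 kb or more the ratios were 1.01, 1.30 and 1.04, that of complex IV resting on only 2 members, Cox7b and Cox7a2l. In vector cells the mean of Cox7b, whose 1001-base transcript is at the cut, was 1035 without and 1506 with NE. That of Cox7a2l was 365 without and 312 with NE. Short transcripts make up most of the complex IV sum and the smaller part of the other sums. These sums are descriptions and no test was made of them.

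**Figure D1:**
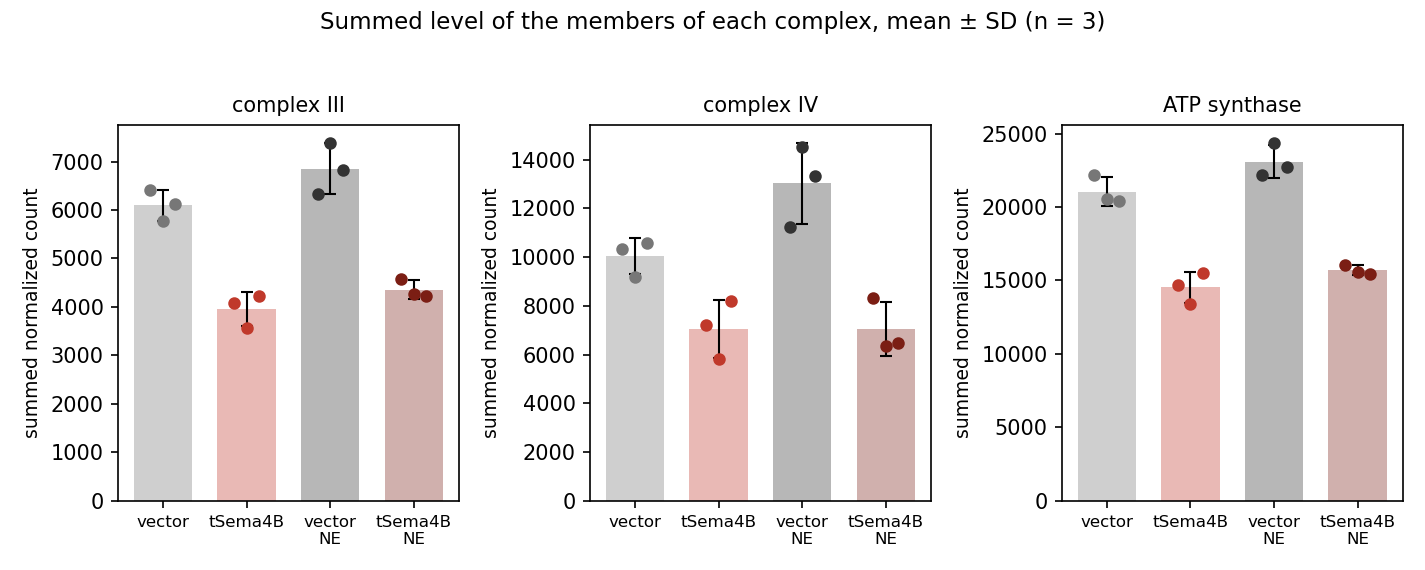
Summed level of the members of complex III, complex IV and ATP synthase, in normalized counts on a linear axis from 0. Points are the 3 libraries of a group and bars the mean ± SD, and in each panel both tSema4B groups lie below both vector groups, the complex IV gap being widest after NE (13039 against 7039).

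The first comparison asked how tSema4B cells differed from vector cells without stimulation. By limma with Benjamini-Hochberg adjustment over all 11998 genes tested, 23 of the 40 tested members were lower in tSema4B cells and none was higher, a call being an adjusted p of at most 0.05. Among all genes tested, 7.39% were lower and 5.64% higher. None of the members had an unadjusted p under 0.05 in the higher direction, and edgeR and DESeq2 also called 23 lower and 0 higher. The estimate was below 0 for 37 of the 40 members, against 6015 of the 11998 genes. Most differences were under 2-fold: only Cox7a1 and Cycs passed with a log2 fold change of -1 or less, where 2.71% of all genes did. In 23 members the vector and tSema4B libraries did not overlap, the tSema4B values being the lower, which held for 15.1% of all genes.

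The second comparison asked the same after NE. Here 34 of the 40 members were lower and none higher by the same test, against 11.2% lower and 9.79% higher among all genes, and again none had an unadjusted p under 0.05 in the higher direction. edgeR called 34 lower and DESeq2 33, and neither called one higher. The 23 members lower without stimulation were all among these 34, 11 more passed only after NE, and 6 passed in neither condition. Whether the tSema4B effect itself differed between the conditions was tested as an interaction and no member passed, as given with the NE results. Past 2-fold there were 8 members, Cox7a1, Atp5e, Cox6c, Cycs, Uqcrq, Cox8a, Cox7b and Atp5l, against 3.73% of all genes. The libraries of the groups did not overlap in 36 members, all lower in tSema4B, against 19.8% of all genes. The unstimulated and the NE comparison share no library, although the spread was estimated over all 12.

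**Figure D2:**
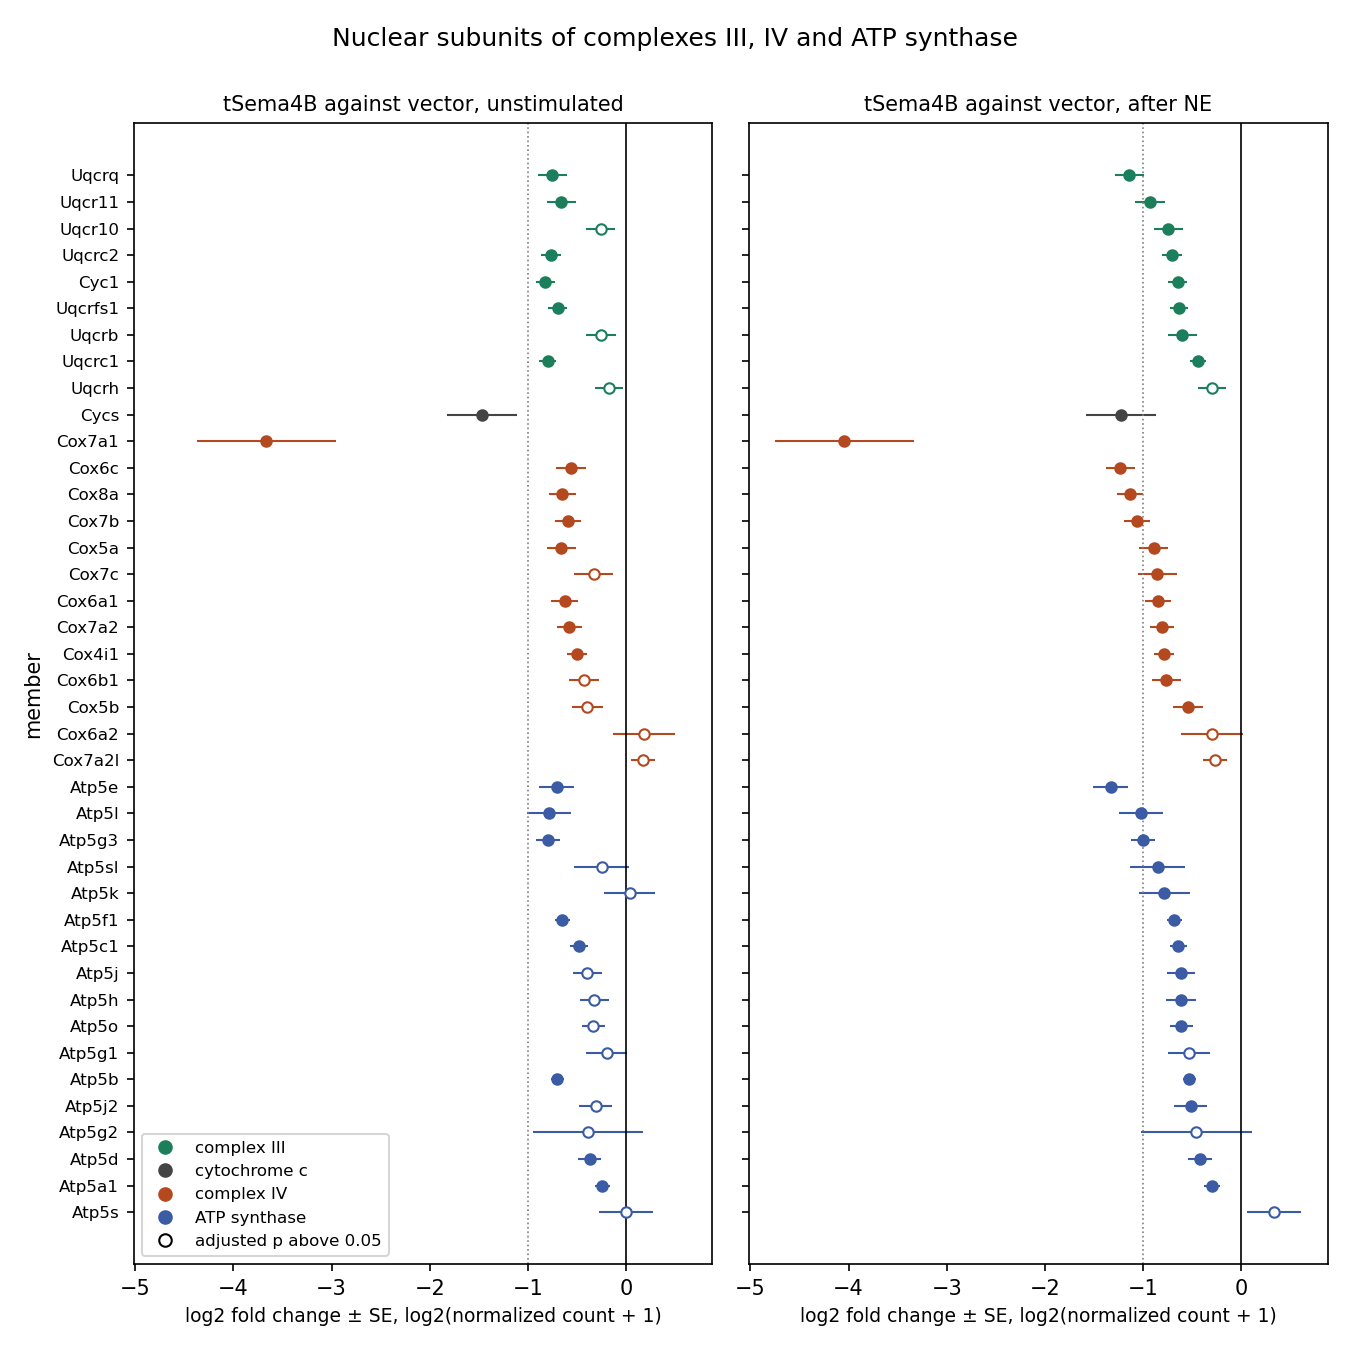
Log2 fold change ± SE of the 40 tested members in tSema4B against vector cells, on the log2(normalized count + 1) scale, without stimulation (left) and after NE (right). Colours mark the complex, open circles an adjusted p above 0.05 and the dotted line a 2-fold decrease. Nearly all members lie left of 0 in both panels, Cox7a1 at -3.66 and -4.04.

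In complex III the 4 large subunits were lower in both conditions, and of the 5 small ones 2 were lower without stimulation and 4 after NE. Of its 9 members, 6 were lower without stimulation (median log2 fold change -0.70) and 8 after NE (median -0.65). Cyc1, the haem protein cytochrome c1 that hands electrons to cytochrome c, stood at 1126, 1091 and 977 normalized counts in vector and 669.8, 566 and 572 in tSema4B unstimulated libraries. After NE its values were 1106, 1173 and 1133 in vector and 665, 718 and 802 in tSema4B libraries. The groups did not overlap in either condition, and Cyc1 was 1.77-fold lower without stimulation (log2 -0.82 ± 0.10 SE, adjusted p = 2.5e-06) and 1.57-fold lower after NE (log2 -0.65 ± 0.10, adjusted p = 4.7e-05), both by limma. Uqcrc1, a core protein on the matrix side, counted 1334, 1217 and 1211 in vector and 749.7, 733 and 682 in tSema4B unstimulated libraries. With NE it counted 1146, 1178 and 1074 in vector and 894, 808 and 801 in tSema4B libraries. It was lower in every tSema4B library, by -0.80 ± 0.09 without stimulation and -0.44 ± 0.09 after NE on the log2 scale. Its partner Uqcrc2 (log2 -0.76 and -0.71) and the Rieske iron-sulfur protein Uqcrfs1 (-0.70 and -0.64) passed in both conditions as well.

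The small subunits of complex III spread more widely. Uqcrq, a small accessory subunit, read 686, 654 and 756 in vector and 429, 336 and 491 in tSema4B unstimulated libraries, and 853, 1179 and 1050.2 against 550.1, 478 and 373 after NE. It passed without stimulation (log2 -0.75) and was the member of complex III with the largest decrease after NE, 2.21-fold (log2 -1.14 ± 0.15, limma adjusted p = 7.1e-06). Uqcrh, the acidic hinge protein that helps dock cytochrome c, had the smallest. Its values were 667, 547 and 719 in vector and 547, 450.1 and 742 in tSema4B unstimulated libraries, which overlap, and 669, 871 and 799 against 649.8, 624 and 612 after NE, which do not. Neither difference passed (log2 -0.17 and -0.30, limma adjusted p = 0.49 and 0.14). Uqcrb, another small accessory subunit, read 324, 277 and 315 against 269, 218 and 283 without stimulation and 314, 457 and 371 against 289.5, 237 and 222 after NE. Only the latter passed (log2 -0.60 ± 0.15, limma adjusted p = 0.0062, and 0.057 without vector NE replicate 2). Uqcr11 passed in both conditions and Uqcr10 after NE only.

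Cycs, the soluble electron carrier between the 2 complexes, had few reads and a large difference. It read 47.8, 36.2 and 51.2 normalized counts in vector and 17.9, 9.28 and 21.9 in tSema4B unstimulated libraries, so the highest tSema4B library was below the lowest vector library. After NE the values were 73.9, 74.7 and 64.2 in vector and 33.2, 42.6 and 18.5 in tSema4B libraries, again without overlap. Cycs was 2.77-fold lower without stimulation (log2 -1.47 ± 0.36, limma adjusted p = 0.0069) and 2.33-fold lower after NE (log2 -1.22 ± 0.36, adjusted p = 0.017). The adjusted p after NE rose to 0.060, 0.063 and 0.093 without vector NE replicate 1, vector NE replicate 2 and tSema4B NE replicate 3. These counts rest on 6 to 16 reads per tSema4B unstimulated library, and 24.7% of the 100-base windows of the Cycs transcript also occur in another annotated gene, so its absolute level is uncertain.

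Complex IV held the single largest change. Cox7a1, the isoform of subunit VIIa of heart, skeletal muscle and brown fat, read 39.1, 32.8 and 43.6 normalized counts in vector and 3.58, 0 and 5.48 in tSema4B unstimulated libraries. After NE it read 26.2, 50.4 and 38.6 in vector and 5.36, 0.947 and 0 in tSema4B libraries. It was therefore present in all 6 vector libraries and at 0 to 5 reads in the 6 tSema4B libraries, 2 of which had none. The log2 fold change was -3.66 ± 0.70 without stimulation (limma adjusted p = 9.1e-04) and -4.04 ± 0.70 after NE (adjusted p = 2.6e-04), and it passed with every library left out in turn. Cox7a1 reached the level for testing through its vector libraries alone, so these p-values add no support beyond the values themselves. So few reads make the fitted size depend on the pseudocount, and it was -1.91 and -1.99 at its nearest to 0 among the alternatives. The ratio of vector to tSema4B was taken from summed reads, scaled by the size factors of the libraries. Without stimulation, at 115 against 7 reads, it was 12.0 with an exact 95% counting interval of 5.65 to 30.6. After NE, at 183 against 6 reads, it was 17.8 with an interval of 8.03 to 49.2. These intervals cover counting error only.

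The widely expressed counterpart, Cox7a2, was lower by far less. It read 961, 842 and 981 in vector and 629, 523 and 723 in tSema4B unstimulated libraries, and 1066, 1379 and 1245 against 830.0, 629.6 and 651 after NE. The groups did not overlap, and the decreases were 1.49-fold (log2 -0.58 ± 0.13, limma adjusted p = 0.0028) and 1.75-fold (log2 -0.81 ± 0.13, adjusted p = 6.9e-05). Per base of transcript, Cox7a1 made up 6.48% ± 0.41 (SD, n = 3) of the sum of both isoforms in vector unstimulated and 4.89% ± 0.91 in vector NE libraries. In tSema4B cells the share was 0 to 1.25% without stimulation and 0 to 1.07% after NE, so it lay below every vector library. Cox7a2l read 358, 359.9 and 377 in vector and 364, 409.9 and 464 in tSema4B unstimulated libraries, which overlap, and 296, 333 and 306 against 295, 245 and 240.5 after NE. It passed in neither tSema4B comparison (log2 0.17 and -0.27, limma adjusted p = 0.42 and 0.14).

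**Figure D3:**
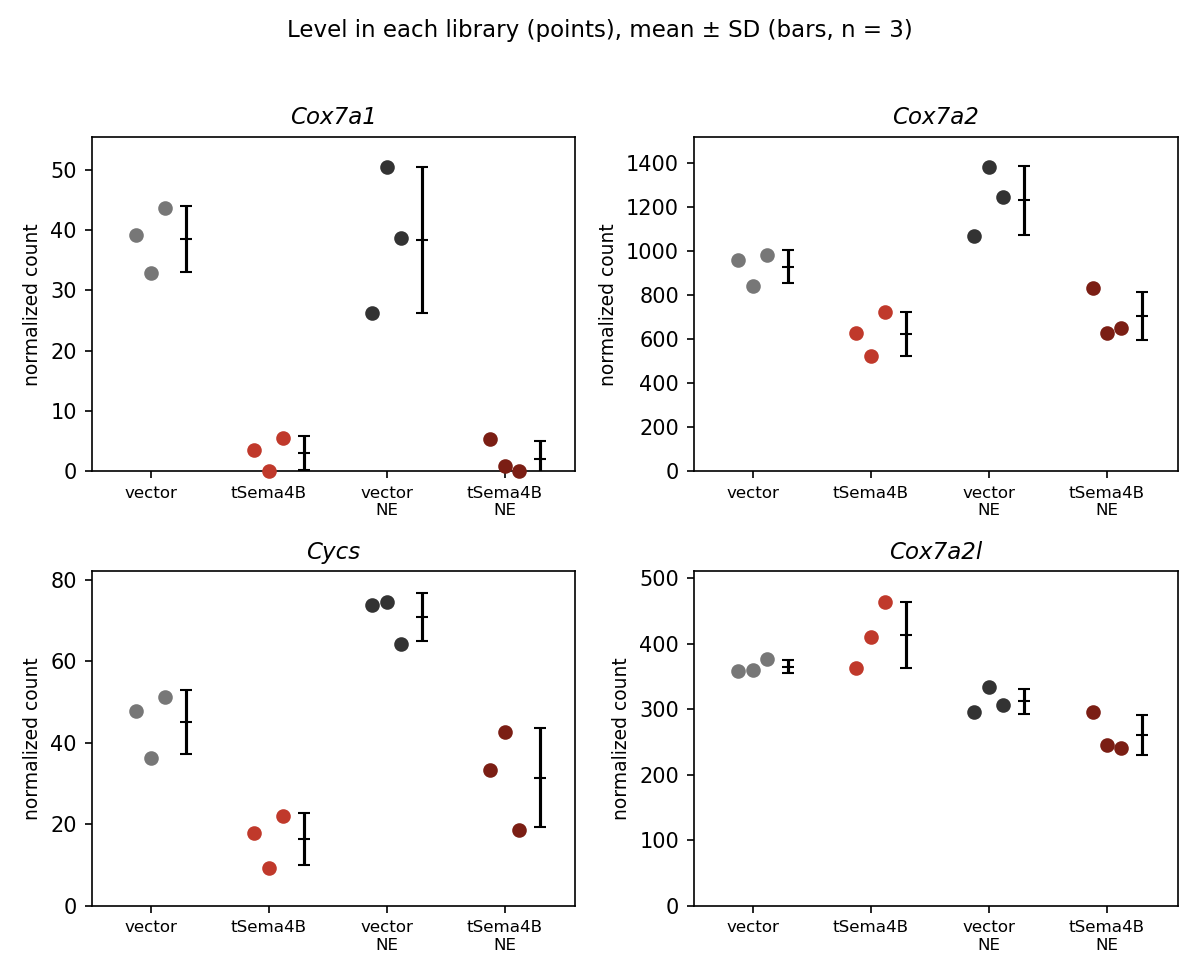
Normalized count in each library of the 2 subunit VIIa isoforms Cox7a1 and Cox7a2, of cytochrome c (Cycs) and of the supercomplex factor Cox7a2l, on linear axes from 0. Points are libraries and the bars beside them the mean ± SD (n = 3). Cox7a1 is at 5.48 or less in every tSema4B library and at 26.2 or more in every vector library.

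The promoter sequences of these 4 genes are shown because they are the members with the largest decreases without stimulation (Cox7a1, Cycs), the other isoform of the same subunit (Cox7a2) and the one member that fell with NE in tSema4B cells (Cox7a2l). Each is the 250 bases before the start site on the gene's own strand, taken from RefSeq for GRCm38.p6, with matches to 4 motifs in capitals. The motifs, searched on both strands, were those named for the estrogen-related receptors (AAGGTCA), NRF1 (GCGCANGCG), ETS factors (CCGGAAG) and the GC box (GGGCGG). Cox7a1 lies at chr7:30183921-30184170, plus strand, where 27 bases fall in an annotated exon of Cox7a1. Cox7a2 lies at chr9:79759854-79760103, minus strand, with 25 bases in an annotated exon of the gene. Cycs lies at chr6:50566570-50566819, minus strand, where 177 bases are also exon of the opposite-strand gene 5430402O13Rik. Cox7a2l lies at chr17:83514334-83514583, minus strand, inside the annotated gene and outside its exons.
Cox7a1: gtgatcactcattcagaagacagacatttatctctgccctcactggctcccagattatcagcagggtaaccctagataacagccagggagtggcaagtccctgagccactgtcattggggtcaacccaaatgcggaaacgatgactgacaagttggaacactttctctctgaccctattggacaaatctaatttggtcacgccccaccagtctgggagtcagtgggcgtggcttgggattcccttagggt
Cox7a2: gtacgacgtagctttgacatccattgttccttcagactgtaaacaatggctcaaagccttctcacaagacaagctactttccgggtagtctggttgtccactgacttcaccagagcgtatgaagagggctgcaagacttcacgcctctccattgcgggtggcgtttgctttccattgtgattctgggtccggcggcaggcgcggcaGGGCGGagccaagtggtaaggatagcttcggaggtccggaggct
Cycs: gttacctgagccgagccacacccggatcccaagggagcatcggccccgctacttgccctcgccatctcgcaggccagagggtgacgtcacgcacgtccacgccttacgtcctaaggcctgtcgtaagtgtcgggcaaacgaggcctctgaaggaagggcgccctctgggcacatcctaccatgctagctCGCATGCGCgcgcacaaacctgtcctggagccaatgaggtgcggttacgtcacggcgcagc
Cox7a2l: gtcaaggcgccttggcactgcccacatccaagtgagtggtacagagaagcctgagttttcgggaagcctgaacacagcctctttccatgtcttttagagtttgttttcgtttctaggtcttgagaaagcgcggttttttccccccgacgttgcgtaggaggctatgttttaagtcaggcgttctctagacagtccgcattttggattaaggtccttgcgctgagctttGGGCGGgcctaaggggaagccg
No motif match was found in the Cox7a1 window, which says only that these letters are not in it. Cox7a2 has a GC box 44 bases and Cox7a2l one 22 bases before the start, and Cycs has an NRF1 match 61 bases before it, on the strand opposite to the one printed. Promoters of 35 of the 45 members were in the table. The ETS letters were in 8 of the 35 (22.9%, against 6.91% of all 32851 promoters), the NRF1 letters in 6 (17.1% against 5.16%), the receptor letters in 2 (5.71% against 4.08%) and the GC box in 10 (28.6% against 32.7%). These are matches of letters and were not tested as binding sites. Each member was counted with the promoter nearest to the start of its transcript, whereas the share over all promoters counts every promoter listed.

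Among the widely expressed subunits of complex IV, the decreases were moderate. Of the 13 tested members of the complex, Cox7a1 included, 8 were lower without stimulation (median -0.56) and 11 after NE (median -0.85, from -4.04 to -0.27). Cox4i1, the largest nuclear subunit, read 2530.2, 2339.9 and 2615 in vector and 1776, 1536 and 2006 in tSema4B unstimulated libraries, and 2641, 3215 and 3185 against 2017, 1581 and 1662 after NE. It was 1.41-fold and 1.72-fold lower (log2 -0.50 ± 0.10 and -0.78 ± 0.10, limma adjusted p = 0.0018 and 9.1e-06). Cox6c, a small transmembrane subunit, went from 965, 862 and 1075 in vector to 688, 510.5 and 791 in tSema4B cells without stimulation, and from 1265, 1823 and 1525 to 787, 623 and 552 after NE. Next to Cox7a1 it had the largest decrease of the complex after NE, 2.35-fold (log2 -1.23 ± 0.15, limma adjusted p = 3.7e-06). Without stimulation it was 1.48-fold lower (limma adjusted p = 0.014, and 0.073 or 0.105 without vector unstimulated replicate 3 or tSema4B unstimulated replicate 2).

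Cox8a, the widely expressed subunit VIII, read 1249, 1045 and 1269 against 779, 625 and 883 without stimulation and 1359, 1765 and 1501 against 876, 642 and 604 after NE. Cox7b, needed for assembly of the complex, read 1063, 985 and 1056 against 729, 557 and 801 and, after NE, 1239, 1743 and 1536 against 853, 633 and 677. Both were past 2-fold after NE, at 2.2-fold (log2 -1.13 ± 0.14) and 2.08-fold (-1.06 ± 0.13), and under 2-fold without stimulation (log2 -0.65 and -0.59). Cox5a, which sits on the matrix side, read 371, 304 and 331 against 215, 172 and 257 and, after NE, 472, 516 and 522 against 291, 228 and 297, a decrease of 1.58-fold and 1.86-fold (log2 -0.66 and -0.89). No vector library of these 3 genes overlapped a tSema4B library of the same condition. Cox6a1, the widely expressed subunit VIa, passed in both conditions with 1391, 1203 and 1403 against 955, 671 and 994 without stimulation and 1435, 1796 and 1712 against 1117, 792 and 852 after NE (log2 -0.63 and -0.85). Cox6b1, which links the monomers of the dimer, read 869.8, 794 and 923 against 675, 483 and 804, with overlap, and 954, 1309 and 1173 against 809, 629.6 and 588 after NE. It passed after NE (log2 -0.76 ± 0.15, limma adjusted p = 8.8e-04) and not without stimulation (-0.43 ± 0.15, adjusted p = 0.065). Cox5b and Cox7c also passed after NE only, and Cox5b lost its call without vector NE replicate 3, tSema4B NE replicate 2 or tSema4B NE replicate 3 (limma adjusted p = 0.077, 0.074 and 0.066).

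The other tissue isoforms of complex IV were scarce. Cox6a2, the heart and muscle form of subunit VIa, read 45.6, 35.3 and 61.0 in vector and 47.7, 41.8 and 72.6 in tSema4B unstimulated libraries, and 30.9, 59.9 and 62.2 against 42.9, 39.8 and 35.7 after NE. These values overlap, and neither difference passed (log2 0.18 ± 0.31 and -0.30 ± 0.31, limma adjusted p = 0.77 and 0.55). Per base of transcript it was 2.87% ± 0.58 (SD, n = 3) of the sum with Cox6a1 in vector and 4.92% ± 0.88 in tSema4B unstimulated cells, and 2.49% ± 0.63 against 3.52% ± 0.48 after NE. The Cox6a2 share was thus higher in every tSema4B library than in any vector library of the same condition, whereas that of Cox7a1 was lower. The shares are descriptions with no test. Cox8b, a further form of heart, muscle and brown fat, read 0, 0.841 and 3.27 in vector unstimulated and 1.34, 2.96 and 1.31 in vector NE libraries and 0 in all 6 tSema4B libraries, which is 0 to 5 reads and too few to compare. Cox6b2, a form of testis, was at 1.09, 3.36 and 9.8 and 3.58, 1.55 and 6.85 without stimulation and at 13.4, 5.93 and 10.5 and 1.07, 0.947 and 1.32 after NE. The vector mean after NE was 2.51 times a floor of 3 reads per library, and Cox6b2 was not tested. Cox4i2, a form of lung, had 1 read in 1 vector library, and Cox7b2 and Cox8c, forms of testis, had none. Of 9 skeletal muscle markers, Myod1, Myog, Ckm, Myh1 and Myh4 were listed at 0 in every library, and the one tested, Acta1, was lower in tSema4B cells, at a mean of 1.59 against 16.9 normalized counts without stimulation and listed at 0 against 23.8 after NE. Acta1, like Cox7a1, reached the level for testing through its vector libraries alone.

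ATP synthase was lower through both its catalytic head and its membrane part. Of its 17 members, 8 were lower without stimulation (median -0.37) and 14 after NE (median -0.61). The head subunits alpha (Atp5a1), beta (Atp5b), gamma (Atp5c1), delta (Atp5d) and epsilon (Atp5e) passed in both conditions. Atp5b, the catalytic subunit, was the most abundant member per kilobase of transcript and was 1.62-fold lower without stimulation (log2 -0.70 ± 0.07) and 1.44-fold lower after NE (-0.53 ± 0.07). Atp5a1, with which it alternates in the ring, differed least of the 5 in both conditions (log2 -0.24 ± 0.08 and -0.30 ± 0.08). Its call without stimulation had a limma adjusted p of 0.044, which rose to 0.206 without vector unstimulated replicate 1 and lay above 0.05 in 7 of the 12 fits with 1 library left out and in 7 of the 14 other alternatives. Its call after NE held in all 12 and was lost with libraries set to the same total over all genes (0.077). It was also lost with reads thinned to the shallowest library (0.112), a setting that sets the same total over all genes as well. The Atp5d call without stimulation was lost in 5 of the 12 fits, up to an adjusted p of 0.232 without tSema4B unstimulated replicate 2, and its call after NE in 3, up to 0.095 without vector NE replicate 2. Atp5e, the small subunit at the foot of the stalk, read 484, 409 and 508 in vector and 291, 221 and 360.1 in tSema4B unstimulated libraries. After NE it read 608, 833 and 693 against 356, 297 and 207, the largest decrease of the complex at 2.51-fold (log2 -1.33 ± 0.18, limma adjusted p = 1.2e-05). Without stimulation it was 1.63-fold lower (limma adjusted p = 0.0098, and 0.072 without tSema4B unstimulated replicate 2).

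The 3 genes of the rotating c ring encode the same mature protein and were not alike in level. Atp5g3 read 751, 708 and 743 in vector and 400.5, 369.7 and 507 in tSema4B unstimulated libraries, and 884, 973 and 813 against 520.1, 394 and 425 after NE. It was 1.74-fold lower without stimulation (log2 -0.80 ± 0.12, limma adjusted p = 7.2e-05), the largest decrease of ATP synthase there, and just under 2-fold lower after NE (adjusted p = 3.8e-06). Atp5g1 read 105, 113 and 85.0 against 88.2, 69.6 and 108 and, after NE, 115, 148 and 149 against 115, 92.8 and 78.0, and it passed in neither condition (log2 -0.20 and -0.53, limma adjusted p = 0.61 and 0.079). Atp5g2 read 18.5, 10.1 and 6.53 against 4.77, 10.8 and 9.58 and, after NE, 6.72, 14.2 and 15.1 against 9.65, 5.68 and 9.25, with overlap and no call. Every 100-base window of the Atp5g2 transcript and 57.3% of those of Atp5g1 also occur in other annotated genes, and none of Atp5g3, so the order of the 3 genes is uncertain.

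Of the remaining membrane and stalk subunits, Atp5f1 (subunit b) and Atp5l (subunit g) passed in both conditions. Atp5l read 89.0, 94.2 and 82.8 in vector and 60.8, 41.8 and 52.0 in tSema4B unstimulated libraries, and 101, 159 and 138 against 75.1, 56.8 and 60.8 after NE, a decrease of 1.72-fold and 2.03-fold (log2 -0.79 ± 0.23 and -1.02 ± 0.23). Its limma adjusted p without stimulation, 0.022, rose to 0.084, 0.068 and 0.092 without vector unstimulated replicate 2, vector unstimulated replicate 1 and tSema4B unstimulated replicate 2, and 69.0% of its windows also occur in other genes. Atp5h (subunit d), Atp5j (F6), Atp5o (OSCP), Atp5j2 (subunit f) and Atp5k (subunit e) passed after NE only. The Atp5j2 call was lost without vector NE replicate 2 or 3 or tSema4B NE replicate 2 or 3 (limma adjusted p = 0.173, 0.092, 0.081 and 0.117). Atp5k read 169, 161 and 272 against 263, 128 and 238 without stimulation, where it was the highest estimate of the complex (log2 0.04 ± 0.26), and 273, 463 and 361 against 303, 165 and 178 after NE (log2 -0.78 ± 0.26, limma adjusted p = 0.035). Its groups overlap after NE, and the call was lost without vector NE replicate 2 or 3 or tSema4B NE replicate 2 or 3 (limma adjusted p = 0.174, 0.089, 0.143 and 0.115).

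Of the 2 members that are not subunits of ATP synthase, 1 was called. Atp5s read 66.2, 58.9 and 95.8 in vector and 85.8, 88.2 and 49.3 in tSema4B unstimulated libraries, and 42.3, 52.2 and 60.2 against 49.3, 82.4 and 66.1 after NE. It had the highest estimate of all tested members after NE (log2 0.33 ± 0.28) and passed in no comparison. Atp5sl read 58.6, 67.3 and 46.8 against 50.1, 58.8 and 37.0 and, after NE, 76.6, 63.4 and 66.1 against 26.8, 43.6 and 44.9, and was lower after NE (log2 -0.85 ± 0.28, limma adjusted p = 0.031). That call was lost without vector NE replicate 1, 2 or 3 or tSema4B NE replicate 1 (limma adjusted p = 0.115, 0.063, 0.075 and 0.136).

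The third and the fourth comparison asked what NE did within each line. In vector cells 8 of the 40 members were higher with NE and none was lower, against 6.82% higher and 4.78% lower among all genes, with no lower member at an unadjusted p under 0.05. edgeR called 10 higher and DESeq2 9, and neither called one lower. The 8 were Cox6c, Cox5a, Cox7b and Cox7a2 of complex IV, Uqcrq and Uqcr10 of complex III, and Atp5k and Atp5e of ATP synthase, with log2 fold changes from 0.40 to 0.87. Cox6c changed from 965, 862 and 1075 to 1265, 1823 and 1525 normalized counts (log2 0.66 ± 0.15, limma adjusted p = 0.0058), with no overlap, and Cox5a from 371, 304 and 331 to 472, 516 and 522 (log2 0.59 ± 0.15, adjusted p = 0.01). Cox6c was the one of the 8 that passed with each library left out in turn. In 20 members every NE library lay above every unstimulated library, against 17.6% of all genes. The count of 8 depended on single libraries. It was 1 without vector NE replicate 3 and 1 without vector unstimulated replicate 2. It was 2 without vector NE replicate 2 and 3 without vector unstimulated replicate 1. Counts above 8 were reached with only the 6 libraries compared and in a fit with 1 library left out, as given at the end. The median log2 fold change was 0.24 for complex III, 0.37 for complex IV and 0.26 for ATP synthase.

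In tSema4B cells few of these genes were called with NE. No member was higher and 1 was lower, against 3.68% higher and 2.58% lower among all genes, while 7 had an unadjusted p under 0.05 in the higher direction and edgeR and DESeq2 called 0 higher and 1 lower. The medians were 0.15 for complex III, -0.01 for complex IV and 0.03 for ATP synthase. The member that fell was Cox7a2l, from 364, 409.9 and 464 to 295, 245 and 240.5 normalized counts, without overlap. It was 1.58-fold lower (log2 -0.66 ± 0.12, limma adjusted p = 0.0015) and passed with every library left out. In vector cells it went from 358, 359.9 and 377 to 296, 333 and 306, also without overlap, and did not pass (log2 -0.23 ± 0.12, limma adjusted p = 0.28). Cycs had the highest estimate in tSema4B cells (log2 0.90 ± 0.36) and the highest of the members that were not called in vector cells (0.66 ± 0.36), and it passed in neither (limma adjusted p = 0.14 and 0.27).

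Ucp1, which NE is known to induce, was higher with NE in both lines, and in tSema4B cells its mean was 62.9 normalized counts against no read without stimulation. The difference between the NE effects of the 2 lines was tested as the interaction. No member passed in limma, edgeR or DESeq2, 8 had an unadjusted p under 0.05, and 3 of all genes tested passed (0.025%). The lowest adjusted p among the members was 0.26 for Cox6c (log2 -0.67 ± 0.21). A call in vector cells and none in tSema4B cells is therefore not shown to be a difference between the lines.

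Transcript length went with these results and is given beside them. Most members have short mRNAs: 27 of the 40 tested were under 1 kb. Over all tested genes under 1 kb, the median log2 fold change was -0.35 for tSema4B against vector after NE and 0.28 for NE in vector cells, but -0.03 for tSema4B against vector without stimulation and -0.02 for NE in tSema4B cells. The members under 1 kb had medians of -0.78, 0.30, -0.39 and 0.03 in the same order, and the 13 members of 1 kb or more had -0.64, 0.09, -0.65 and 0.06. Among the 40 members, Spearman's rho of log2 fold change with length was 0.38 after NE, -0.50 for NE in vector cells, -0.08 without stimulation and 0.16 for NE in tSema4B cells, as a description over genes that share the same libraries. With the trend on length removed, an alternative chosen after seeing the data, 23 members were lower without stimulation, 25 after NE, and 2 were higher with NE in vector cells (Cox6c and Cox7b) and 1 was lower (Cox7a2l). The calls after NE that were lost with the trend removed were those of Atp5d, Atp5h, Atp5j, Atp5j2, Atp5k, Cox5b, Cox7c, Uqcr10 and Uqcrb. Without stimulation the number of calls was the same but not the genes, since Atp5a1 lost its call (limma adjusted p = 0.056) and Cox6b1 gained one (0.018). Whether RNA quality or library preparation contributed was not tested.

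**Figure D4:**
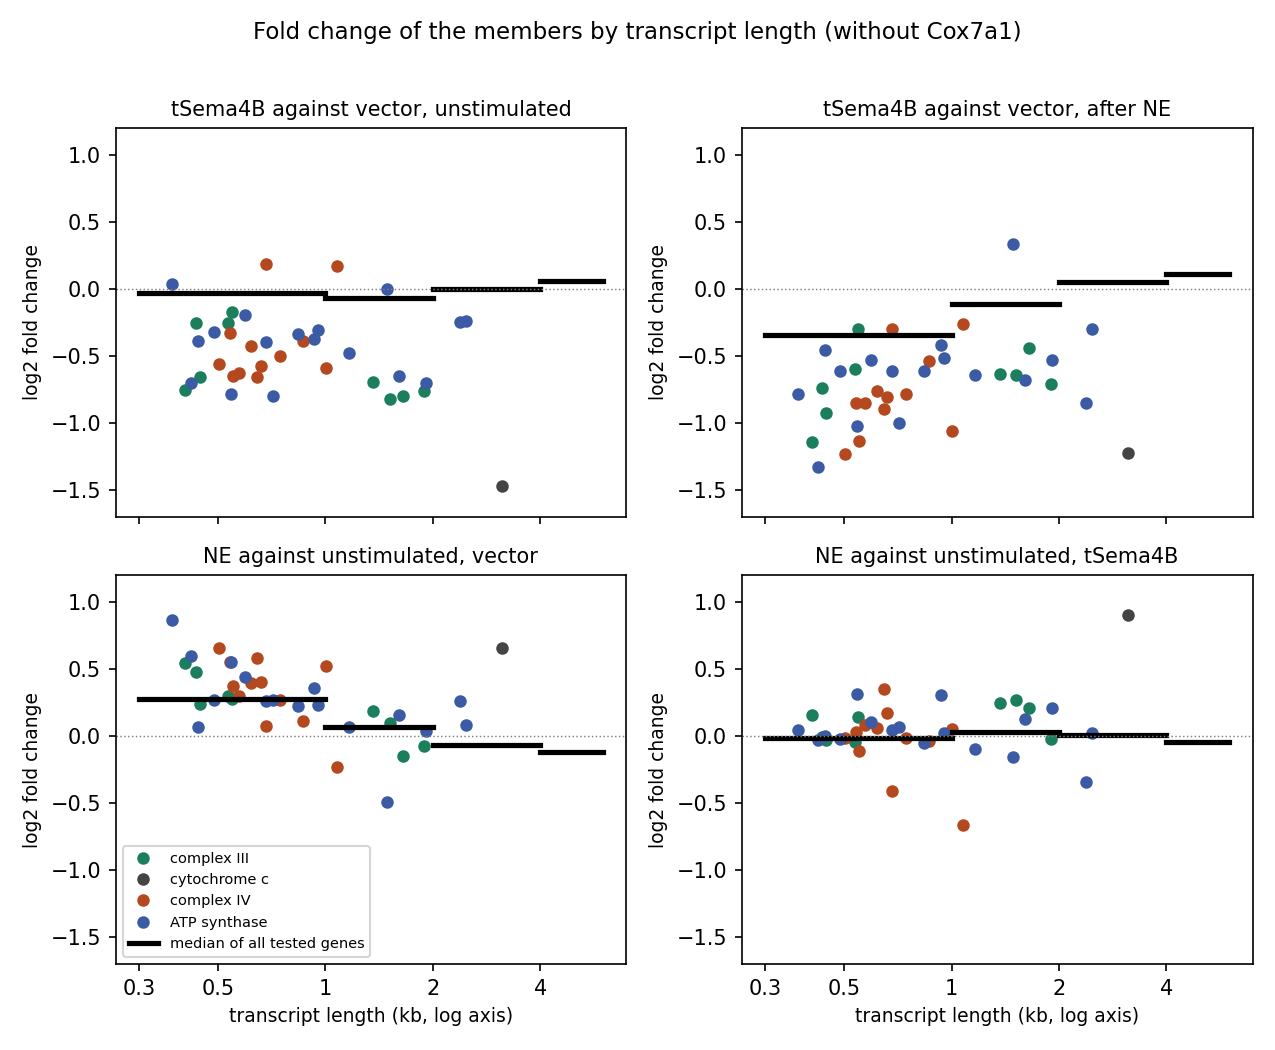
Log2 fold change of the tested members against transcript length in kilobases (log axis) in the 4 comparisons, coloured by complex, with the median of all tested genes in 4 length classes as black lines. Cox7a1 is left out because it lies below the axis in the upper panels. Without stimulation most members lie below a nearly flat line. After NE and for NE in vector cells the line itself tilts (-0.35 and 0.28 under 1 kb).

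Other genes of the same complexes and their neighbours were read from gene lists. Of 7 further genes of these complexes that the name rule does not catch, 6 were listed and tested. They include Uqcc3 and Atpif1, which are counted again in the assembly lists that follow. Of the 6 genes, 1 was lower in tSema4B cells without stimulation, against 7.39% of all genes, and 3 after NE, against 11.2%. After NE Usmg5, a small subunit of ATP synthase, fell most (log2 -1.23). Ndufa4, a subunit of complex IV despite its name, did not pass (0.23 without stimulation and -0.08 after NE), nor did the ATP synthase inhibitor Atpif1 (0.18 and -0.26). Of 6 mitochondrially encoded subunits of these complexes only mt-Cytb and mt-Co1 were countable, and both were lower in tSema4B cells: mt-Cytb by -0.89 without stimulation and -0.94 after NE, and mt-Co1 by -1.04 and -0.93. The other 4 were listed at 0 or nearly so in every library, so nothing can be said of them.

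Assembly factors were read beside the share of all genes that were lower, 7.39% without stimulation and 11.2% after NE. Without stimulation 1 of 6 tested factors of complex III, 3 of 22 of complex IV and 2 of 5 of ATP synthase were lower, and after NE 1, 5 and 1. Cox14 and Higd1a, both factors of complex IV, were lower in either condition (log2 -0.57 and -0.68 for Cox14, -0.62 and -0.95 for Higd1a), and Higd1a, a factor also known for its induction by low oxygen, was higher with NE in vector cells (0.88). Tmem70, needed to build ATP synthase, was lower in both (-0.52 and -0.85). Among 36 nuclear genes of complex I, 16 were lower without stimulation (median -0.42) and 26 after NE (median -0.60), and of the 4 of complex II, 4 and 2. The complexes described here were at 6 of 9, 8 of 13 and 8 of 17 tested without stimulation and at 8, 11 and 14 after NE, and no test was made between complexes.

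Of 16 regulators of respiratory genes 13 were tested, and 1 was lower in tSema4B cells without stimulation, where 7.39% of all genes were. It was Nrf1, a factor that binds promoters of many respiratory genes (log2 -0.74). After NE, where 11.2% of all genes were lower, 3 of the 13 were, the coactivators Ppargc1b (-1.64) and Pprc1 (-0.80) and the ETS partner Gabpb1 (-1.08). Pprc1 was higher with NE in vector cells (1.01), and in tSema4B cells Tfam, which packages mitochondrial DNA, was higher (0.50) and Gabpb1 lower (-0.90). Ppargc1a, the best known coactivator of the pathway, was at means of 20.8 and 32.8 normalized counts in vector and tSema4B unstimulated cells and passed in no comparison. Gabpa, which pairs with Gabpb1, passed in no comparison. Atp5j and Gabpa share 397 exon bases on opposite strands. The libraries keep no strand, so reads from these bases cannot be told apart.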

How the data were processed

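Single-end RNAseq libraries, 12 in all with 3 in each of 4 groups, were made by SMART-Seq2, which keeps no strand. Reads were aligned with STAR 2.7.9a to mm10 (GRCm38.p4) and counted with HTSeq, and the authors deposited DESeq2-normalized counts, a signal per gene that is reads divided by the size factor of the library. The annotation used for counting is not given in the sources used here. Every non-zero value was a whole multiple of the value of 1 read (100% within 0.01), so whole reads were recovered for edgeR and DESeq2.

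Values were tested with limma 3.58.1 (R 4.3.3) on log2(normalized count + 1), with 1 trended model of all 12 libraries and Benjamini-Hochberg adjustment over the 11998 genes with a count of 10 in 3 libraries. Fold changes are on that scale, which understates the change of low genes. edgeR 4.0.16 and DESeq2 1.42.0 were alternatives, and scripts were tested on simulated data. Depths of 2000780 to 5409583 reads leave members of few reads, such as Cox7a1 and Cycs, the least precise, and counting intervals cover counting error only.

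Members and gene lists were chosen with earlier results of these data known. Every library's value is given for members past 2-fold in a call, tissue isoform sets, Cyc1, Cycs, and the highest and lowest log2 fold change of each complex in each comparison. Transcript lengths and shared exons came from GENCODE M21, as the shortest well supported principal transcript. This rule replaced the longest principal transcript after the members' lengths had been seen, and both were run. The length and thinning alternatives, the motifs and the printed promoters were likewise chosen after seeing the data. Of the members, 17 have 100-base windows that also occur in another gene, 5 of them in over 40% of the windows (Atp5g2, Atp5l, Atp5g1, Atp5h and Cox7c), and 13 share exon bases with another gene, 12 of them on the opposite strand, so their levels are uncertain. Replicate numbers did not pair the libraries.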

Additional observations from a re-analysis of the deposited data

Results flagged for a closer look

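Uqcrc1, the core protein of complex III, had NE effects of opposite direction in the 2 lines, and the libraries did not overlap in either. With NE it changed by -0.15 (log2) in vector cells, where all 3 NE libraries lay below the unstimulated ones, and by 0.21 in tSema4B cells, where all 3 lay above. The test of the difference, the interaction, did not pass (limma log2 0.36 ± 0.12, adjusted p = 0.29), and neither NE effect passed by itself.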

How the results depend on the processing

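No called value took the opposite sign under any of them. Of the 66 calls of members, 1575 of 1714 refits kept the call (Cox7a1 was not tested under the filter of 50 normalized counts), and the 139 that lost it fell in 24 of the calls. Of 83 values that were not called, over the members whose every library is given, 36 took another sign in at least one setting and 10 passed in at least one, never with the sign turned. The numbers of members lower in tSema4B cells ranged from 18 to 25 (23 in the report) without stimulation and from 28 to 34 (34) after NE with 1 library left out. Requiring a 2-fold change left 2 and 8 of these, and 0 of the NE calls in either line. The 8 members higher with NE in vector cells became 2 with the length trend removed, 3 with the longest transcript as length, 4 with no filter, 16 with only the 6 libraries compared, and 5 with quantile normalization, with thinned reads or with the same total over all genes, and 1 to 11 with 1 library left out. Thinned reads were also set to the same total over all genes, so depth and scaling are not separated there. Both length settings gave 1 member lower with NE in vector cells. In tSema4B cells 1 member was higher with NE, against 0, under quantile normalization and with the same total over all or over nuclear genes, and 0 to 1 with 1 library left out (1 without tSema4B NE replicate 1 or 3). With the length trend removed, the medians after NE were -0.49, -0.48 and -0.32 for complexes III, IV and ATP synthase, and those for NE in vector cells -0.017, 0.059 and 0.055, the cause of the shift being the removed trend itself. With the same total over all genes, the tSema4B sums after NE were 0.680, 0.577 and 0.726 of the vector sums for complexes III, IV and ATP synthase, against 0.636, 0.540 and 0.680, a shift common to all 3 that the scaling itself makes. The same total over all genes moved the median of all genes by 0.094 (log2) for tSema4B against vector after NE. Other scalings moved it less, the most being -0.085 without stimulation with the same total over nuclear genes. With the replicate block the counts were 23, 34, 8 and 1, as without it. The numbers are no pairing: deviations of same-numbered libraries correlated between -0.047 and 0.028 over 18 pairs, 0 of them over 0.1.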
